A study of Callithrix jacchus with 4 samples.

Results

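The genes described here encode the proteins that move calcium across neuronal membranes: the subunits of voltage-gated calcium channels (symbols beginning CACNA, CACNB or CACNG), the ryanodine and inositol trisphosphate receptors that release calcium from the endoplasmic reticulum (RYR1 to RYR3, ITPR1 and ITPR2), the calcium pumps (ATP2A, ATP2B and ATP2C genes) and the sodium-calcium exchangers (SLC8A1 to SLC8A3). They were picked by a rule on gene symbols, set with earlier results of these data known, and 43 of the 35108 genes in the count table matched. Of these, 40 had enough reads to be tested. ITPR3 was not analysed here.

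Frontal cortex of the adult common marmoset (Callithrix jacchus), a small monkey, was profiled by RNA sequencing in 4 libraries. The wild-type group, with no sex in the labels, and the APP transgenic group, labelled female, had 2 libraries each. The transgenic animals carried mutant amyloid precursor protein transgenes under the human EF1α promoter, a promoter active in most cell types. The labels do not spell out whether libraries of 1 group are separate animals. The wild-type libraries differed in counts of the Y-linked gene KDM5D (2 and 243) and so did not come from 1 animal. For the transgenic libraries this is not known, and their spread may be technical.

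Calcium enters neurons through voltage-gated channels, each built on a pore-forming α1 subunit, in most types with a cytosolic β and an extracellular α2δ subunit. Inside the cell, inositol trisphosphate and ryanodine receptors release stored calcium, and pumps and exchangers return it to the store or push it out of the cell. In cortex these proteins set transmitter release, dendritic excitability and the calcium signals that reach the nucleus, and disturbed neuronal calcium handling is a long-standing theme of Alzheimer's disease research.

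Total counts ran from 12657323 to 18932180 per library, and the 43 genes together took 79205 to 122543 of them. Levels are given as CPM, counts scaled to the TMM-adjusted library size, and 3 counts correspond to 0.17 to 0.23 CPM. Values joined by "against" name wild-type libraries 1 and 2 first and transgenic libraries 1 and 2 second. CPM values are not corrected for transcript length and are compared only within a gene. APP itself stood at 1822 and 2182 against 2143 and 2748 CPM, so that transgenic library 1 lay inside the wild-type range. Transgenic library 2 stood apart from the others: the chi-square per degree of freedom over genes was 41.2 to 53.5 in its pairs and 8.02 to 14.1 in the other pairs. The summed level of 8 astrocyte markers was 7527 and 6350 against 6930 and 2203 CPM, and that of 8 oligodendrocyte markers 3234 and 2530 against 3147 and 1156 CPM. In each list, transgenic library 2 lay below both wild-type libraries in 7 of the 8 markers. The exceptions were GFAP and MAG, which lay inside the wild-type range. The cortical label was matched by markers of excitatory neurons, which summed to 4131 to 4904 CPM, most of it from CAMK2A at 2598 to 3044 CPM. Of these 6 markers, TBR1 and SLC17A6 were lower in both transgenic libraries than in both wild-type libraries, and in 4 the groups overlapped. The 4 cerebellar markers summed to 56.4 to 98.1 CPM, most of it from CALB1, which cortical interneurons also express. The 3 choroid plexus markers summed to 1.38 to 6.39 CPM.

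No calcium transport gene passed the test between the genotypes, given the spread of the libraries. In the quasi-likelihood test of edgeR, 0 of the 40 genes had an adjusted p below 0.05 (0% of all 16385 genes tested), and the smallest adjusted p among them was 0.79. At an unadjusted p below 0.05 there was 1 gene, ATP2B4, on the higher side, compared with 3.23% of all genes higher and 2.39% lower. After adjustment DESeq2 called 0 of the 40 (0.293% of all genes) and limma-voom 0 (0% of all genes). At an unadjusted p below 0.05 DESeq2 had 2 of the 40, ATP2B4 and CACNA2D1, compared with 820 of all 16385 genes. Limma-voom had 1 of the 40 at that level, ATP2B4, compared with 918 of all 16385 genes. Without transgenic library 2 edgeR called 0 of the 40, with a median log2 fold change of 0.087, and without transgenic library 1 it called 2, ATP2B4 and CACNG5 (4.52% of all genes as higher and 5.4% as lower). The median fitted log2 fold change was 0.02 over the 40 genes and -0.0022 over all genes tested. In sign, 23 of the 40 were higher in transgenic cortex and 17 lower (57.5% higher, compared with 49.6% of all genes). With library totals in place of scaled ones 19 were higher, and the median log2 fold change over all genes was -0.048. Taken singly, transgenic library 1 lay above both wild-type libraries in 15 of the 40 genes and below both in 9 (34.4% and 34% of all genes), and transgenic library 2 in 20 and 14 (39.9% and 41.2%). Fitted differences ran from -0.57 for CACNG5 to 0.62 for ATP2B4 on the log2 scale.

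**Figure D1:**
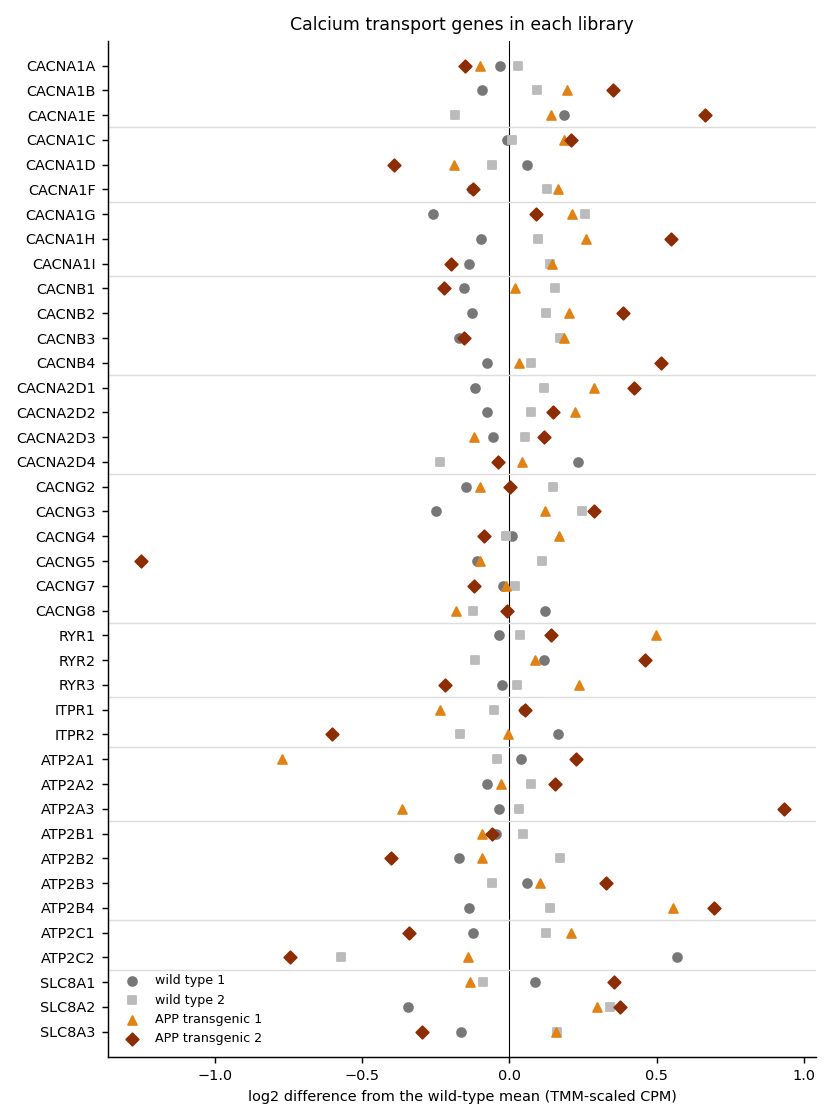
Level of each of the 40 tested genes in each library, as the log2 difference from the mean of the wild-type libraries (x axis, TMM-scaled CPM with 0.5 counts added), with genes grouped by role on the y axis and 1 marker per library. Most markers lie close to 0; ATP2B4 has both transgenic libraries to the right of both wild-type libraries, and CACNG5 has transgenic library 2 alone far to the left.

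Both transgenic values exceeded both wild-type values in 9 of the 40 genes (22.5%, compared with 19.5% of all genes tested), and both were smaller in 3 (7.5%, compared with 19.4%). With library totals in place of scaled ones these counts were 8 and 5. The median log2 fold change over all genes was then -0.048, and their shares without overlap are not reported here. With scaled libraries the higher ones were ATP2B4, CACNA1H, CACNA2D1, RYR1, CACNB2, CACNA1B, ATP2B3, CACNA1C and CACNA2D2, and the lower ones CACNA1D, CACNA1A and ATP2B1. The share on the higher side was thus close to that of all genes. Summed markers of inhibitory neurons separated in the same way, at 652 and 671 against 767 and 840 CPM (5 of 7 markers higher without overlap, while PVALB was lower without overlap, at 44.5 and 35.5 against 29.6 and 25.4 CPM). Those of endothelial cells stood at 273 and 195 against 163 and 130 CPM (4 of 6 markers lower without overlap). The endothelial marker CDH5 went the other way in sign, at 11.9 and 13.2 against 9.48 and 21.8 CPM. Markers of microglia summed to 176 and 229 against 127 and 75.9 CPM (5 of 8 lower without overlap). No marker of these 3 lists was at 0 in all libraries. The part of these cell types in the differences below was not tested.

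**Figure D2:**
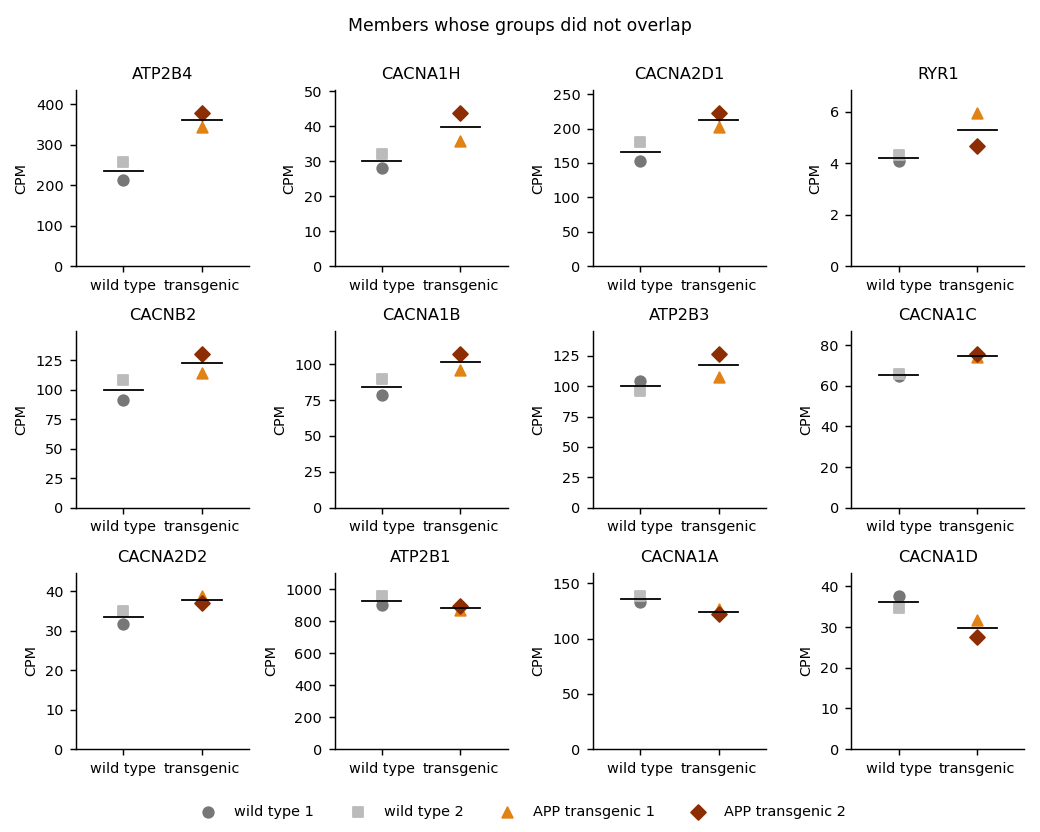
CPM (y axis, from 0) of the 12 genes whose groups did not overlap, with 1 marker per library and a bar at each group's mean (n = 2). ATP2B4 shows the widest gap; in ATP2B1 and ATP2B3 the groups are separated by little.

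The plasma membrane calcium ATPases (PMCA pumps) expel calcium from the cell, and their gene ATP2B4 had the smallest p of the 40 genes. ATP2B4 stood at 213 and 258 against 344 and 379 CPM. Both transgenic libraries were above both wild-type libraries, at 1.46 and 1.61 times the wild-type mean. The difference was fitted as 1.54-fold (log2 0.62 ± 0.15 SE, n = 2 per group). Its adjusted p was 0.79 in edgeR and 0.12 in DESeq2, so the gene did not pass. The unadjusted p in edgeR was 0.0084, at rank 123 of all genes tested. Leaving out transgenic library 1 gave a log2 fold change of 0.69, which passed (adjusted p = 0.035), in a fit that called 4.52% of all genes as higher and treated the lone transgenic library as varying like the wild types. Without each of the other libraries it was 0.48 to 0.77 and did not pass.

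The other PMCA genes differed less. ATP2B1, the most widely expressed of the pumps, stood at 900.3 and 960.0 against 872 and 893 CPM (log2 -0.076 ± 0.14 SE), at 0.937 and 0.960 of the wild-type mean in the transgenic libraries. ATP2B2, a pump enriched in neurons, was at 731 and 926 against 772 and 623 CPM, with transgenic library 1 inside the wild-type range and transgenic library 2 below it. ATP2B3, also enriched in neurons, was at 105 and 96.4 against 108 and 126 CPM (log2 0.22 ± 0.14 SE, adjusted p = 0.79), slightly higher in both transgenic libraries. ATP2B3 is X-linked, and the wild-type pair was of mixed sex by the Y-linked gene KDM5D (2 and 243 counts there, 0 in each transgenic library). Sex and genotype can therefore not be fully told apart.

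The share of ATP2B4 in its family was higher in both transgenic libraries. ATP2B4 took 10.9% of the family's counts in wild-type library 1 (95% Wilson interval 10.5 to 11.3%) and 11.5% in wild-type library 2 (11.1 to 11.9%). In transgenic libraries 1 and 2 its share was 16.4% (16.0 to 16.8%) and 18.7% (18.3 to 19.1%). The intervals cover counting error only, and no test over samples was made on the shares. The 4 genes summed to 1948 and 2240 against 2095 and 2021 CPM, so both transgenic libraries lay inside the wild-type range.

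**Figure D3:**
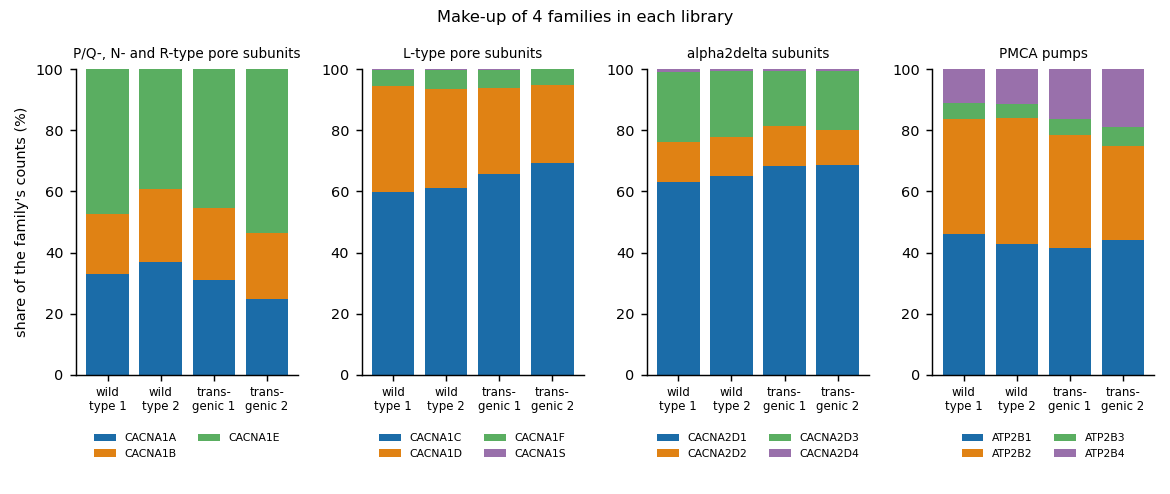
Share of a family's counts (y axis, percent, stacked to 100) that each gene took in each library, for 4 families. The ATP2B4 segment is larger in both transgenic libraries, as is that of CACNA1C among the L-type genes.

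The α1 subunits form the pore and give each channel its type. CACNA1A, CACNA1B and CACNA1E encode the P/Q-, N- and R-type pores, which open at strong depolarization and trigger transmitter release. The N-type gene CACNA1B stood at 78.5 and 89.4 against 96.0 and 107 CPM, higher in both (log2 0.27 ± 0.14 SE, adjusted p = 0.79 in edgeR). The P/Q-type gene CACNA1A was at 133 and 139 against 127 and 122 CPM (log2 -0.13 ± 0.12 SE), lower in both, by a difference close to its SE. The R-type gene CACNA1E was at 190.4 and 147 against 185 and 265 CPM, with transgenic library 1 inside the wild-type range and transgenic library 2 above it (log2 0.41 ± 0.23 SE; 0.13 without transgenic library 2 and 0.65 without transgenic library 1). CACNA1A took 33.1% and 37.0% of the counts of these 3 genes in wild type and 31.1% and 24.7% in transgenic cortex.

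L-type channels, which couple activity to gene expression in neurons, showed opposite signs in their main brain genes. CACNA1C was at 64.8 and 65.6 against 74.2 and 75.4 CPM, higher in both transgenic libraries (log2 0.20 ± 0.12 SE, adjusted p = 0.79 in edgeR). Replicates of this gene were close together, 1.01-fold apart in wild type and 1.02-fold in transgenic cortex. CACNA1D was at 37.7 and 34.7 against 31.7 and 27.6 CPM, lower in both (log2 -0.29 ± 0.16 SE, adjusted p = 0.79). Among L-type counts, the share of CACNA1C was 59.8% and 61.2% in wild type and 65.7% and 69.5% in transgenic cortex, and that of CACNA1D 34.8% and 32.3% against 28.1% and 25.4%. The 95% Wilson intervals of L-type shares reached up to 2.56 percentage points to either side. CACNA1F, the X-linked gene of the retinal channel, was at 5.57 and 6.66 against 6.83 and 5.59 CPM with overlapping groups, and its sign turned with library totals in place of scaled ones. CACNA1S, the skeletal muscle pore, had 4 and 4 against 3 and 0 counts and was not tested.

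T-type channels open near the resting potential and support burst firing. CACNA1H was at 28.0 and 32.0 against 35.9 and 43.9 CPM, with both transgenic libraries above the wild type (fold 1.33, log2 0.41 ± 0.18 SE, adjusted p = 0.79 in edgeR). CACNA1G was at 43.0 and 61.6 against 59.6 and 54.8 CPM, and both transgenic libraries lay inside the wild-type range. CACNA1I was at 63.4 and 76.7 against 77.2 and 60.8 CPM, with the transgenic libraries on either side of the wild-type pair. The log2 fold changes of the latter genes, 0.13 ± 0.21 and -0.024 ± 0.18, were smaller than their SE.

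**Figure D4:**
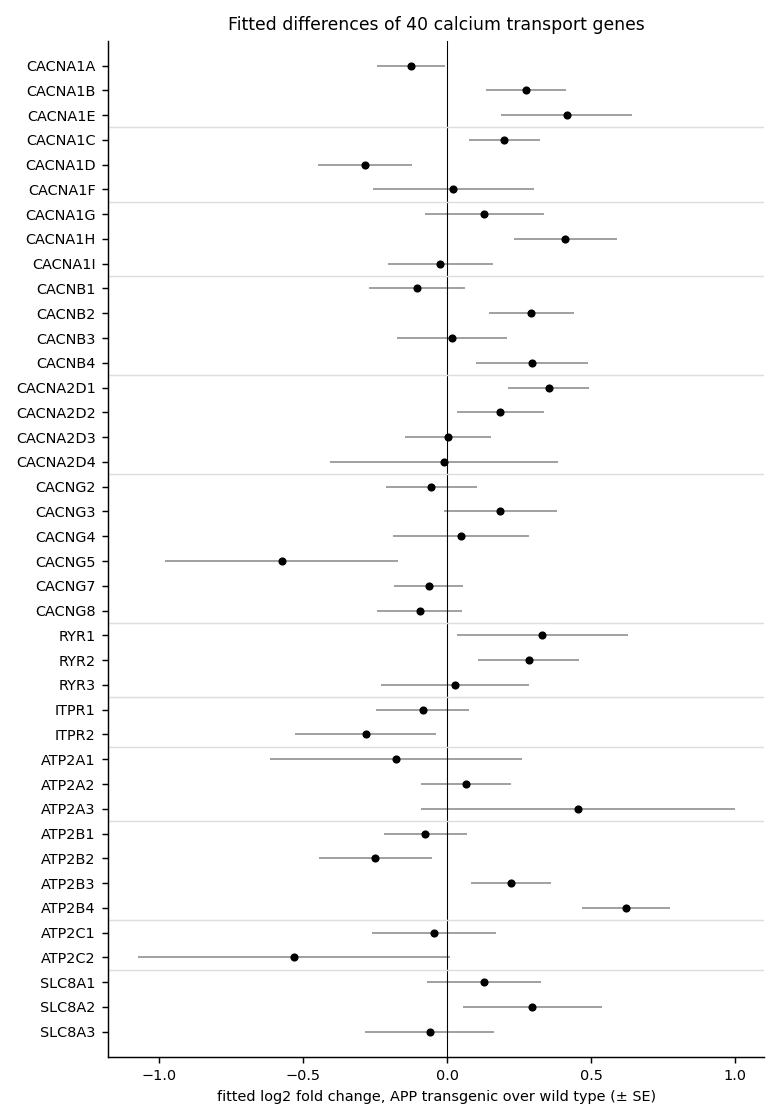
Fitted log2 fold change of transgenic over wild-type cortex (x axis) with its SE as a bar, for the 40 tested genes grouped by role (y axis), n = 2 libraries per group. ATP2B4 at 0.62 lies farthest from 0 relative to its SE; low-count genes such as ATP2A3 and ATP2C2 have the widest bars.

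The auxiliary subunits carry the pore to the membrane and shape its gating. Of the 4 cytosolic β subunit genes, CACNB2 was at 91.1 and 108 against 115 and 129.9 CPM, higher in both transgenic libraries (log2 0.29 ± 0.15 SE, adjusted p = 0.79 in edgeR). CACNB4 was at 236 and 262 against 254 and 356 CPM. Its excess was found in transgenic library 2 and not in library 1, which lay between the wild-type libraries (log2 0.03 without transgenic library 2 and 0.51 without transgenic library 1). CACNB1 was at 125 and 154 against 141 and 119 CPM and CACNB3 at 64.3 and 81.5 against 82.4 and 65.1 CPM, both with overlapping groups, and the sign of CACNB3 turned with library totals.

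The α2δ subunits, of which CACNA2D1 and CACNA2D2 are the binding sites of gabapentin, sit on the outer face of the membrane. CACNA2D1 had the next smallest p after ATP2B4. It was at 153 and 180.1 against 203 and 223 CPM, and both transgenic libraries were the higher ones (fold 1.28, log2 0.35 ± 0.14 SE, adjusted p = 0.79 in edgeR and 0.97 in DESeq2). CACNA2D2 was at 31.6 and 35.1 against 38.9 and 37.0 CPM (log2 0.18 ± 0.15 SE), also without overlap. CACNA2D3 was at 55.6 and 60.0 against 53.2 and 62.7 CPM with overlapping groups and a fitted difference near 0. CACNA2D4 had 25 and 19 against 23 and 29 counts, and its log2 SE of 0.40 was larger than its fitted difference. The 4 genes summed to 242 and 277 against 297 and 324 CPM.

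Most genes of the γ family encode TARPs, which are auxiliary proteins of AMPA-type glutamate receptors rather than of calcium channels. In none of the 6 tested genes were the groups apart. CACNG2, the gene of stargazin, was at 57.2 and 70.2 against 59.1 and 63.5 CPM, CACNG3 at 99.6 and 141 against 129 and 144 CPM, and CACNG8 at 271 and 229 against 219.9 and 248 CPM. The log2 fold changes of these 3 genes were -0.056 ± 0.16, 0.18 ± 0.20 and -0.10 ± 0.15 (± SE), each smaller than its SE. CACNG4 and CACNG7 were at 8.20 to 9.77 CPM and 135 to 149 CPM over the 4 libraries. CACNG6 had 3 and 2 against 7 and 8 counts, and CACNG1 had 0 and 0 against 0 and 2, and neither was tested.

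CACNG5 was the 1 tested gene in which a library lay more than 2-fold from the median of the 4. It stood at 15.2 and 17.7 CPM in the wild-type libraries, at 15.3 CPM in transgenic library 1 and at 6.87 CPM in transgenic library 2. Transgenic library 1 thus lay inside the wild-type range, and transgenic library 2 at 0.418 of the wild-type mean. The fitted log2 fold change was -0.57 ± 0.40 SE (adjusted p = 0.80 in edgeR), and it was -0.11 without transgenic library 2. Without transgenic library 1 it was -1.26 and passed (adjusted p = 0.018, in a fit that called 5.4% of all genes as lower). ITPR2, the inositol trisphosphate receptor best known from astrocytes, was likewise lowest in transgenic library 2, at 72.2 and 57.3 against 64.1 and 42.4 CPM (log2 -0.28 ± 0.24 SE). Leaving out transgenic library 2 gave a log2 fold change of -0.02, and leaving out transgenic library 1 gave -0.61 (adjusted p = 0.076). In transgenic library 2 the summed astrocyte markers, all 8 of which had counts, were at 2203 CPM, compared with 6350 to 7527 in the others. Much of this sum came from SLC1A2, at 4921 and 4173 against 4337 and 999 CPM. GFAP was not reduced, at 695 and 517 against 757 and 635 CPM. The part of astrocytes in these results was not tested, and in bulk tissue fewer cells of a type and less RNA per cell cannot be told apart.

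**Figure D5:**
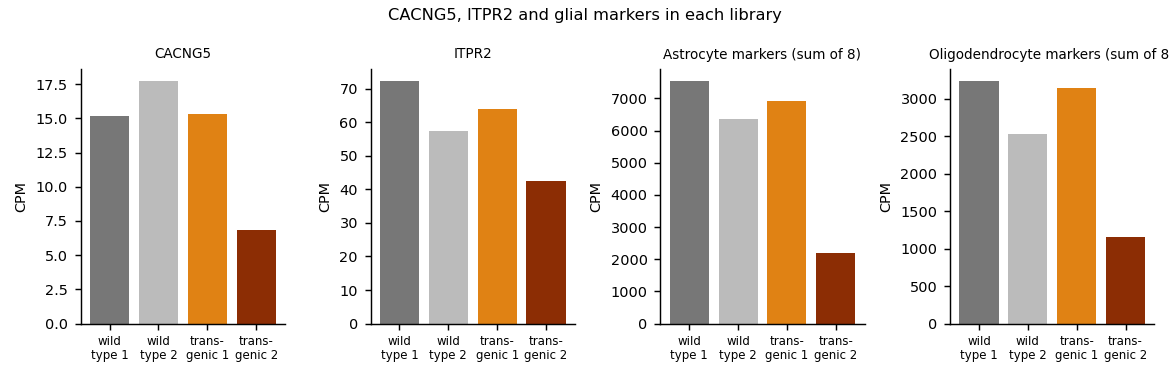
CPM (y axes, from 0) of CACNG5, of ITPR2 and of the summed astrocyte and oligodendrocyte markers in each of the 4 libraries (1 bar per library, no error). The bar of transgenic library 2 is the lowest in each panel.

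Several γ family genes are neighbours in the genome, in the RefSeq order of the assembly calJac240_pri. CACNG7, CACNG8 and CACNG6 follow each other with 0 protein-coding genes between them, as do CACNG1, CACNG4 and CACNG5. The levels of neighbours differed in how they varied: CACNG4 was at 8.74 and 8.63 against 9.77 and 8.20 CPM, and transgenic library 2 was not set apart as in CACNG5. CACNA2D4 and CACNA1C have 2 protein-coding genes between them.

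Of the release channels, RYR2, the main ryanodine receptor of cortical neurons and heart, was at 155 and 132 against 152 and 197 CPM (log2 0.28 ± 0.18 SE). Its excess was again in transgenic library 2, with library 1 inside the wild-type range, and the log2 fold change was 0.08 without transgenic library 2. RYR1, the skeletal muscle form, had 53 and 59 against 81 and 84 counts, or 4.10 and 4.31 against 5.95 and 4.65 CPM, higher in both without passing (log2 0.33 ± 0.30 SE, adjusted p = 0.81). RYR3 was at 9.67 and 10.02 against 11.6 and 8.47 CPM with transgenic libraries on either side of the wild type, and its sign turned with library totals and in limma-voom. ITPR1, the main neuronal inositol trisphosphate receptor, was at 646 and 602 against 529 and 647 CPM (log2 -0.085 ± 0.16 SE), and transgenic library 2 lay above both wild-type libraries by a small margin while transgenic library 1 lay below them.

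Of the pumps that refill stores, the groups overlapped in each tested gene. ATP2A2, the SERCA pump of neurons and most other cells, was at 781 and 866 against 807 and 916 CPM (log2 0.065 ± 0.16 SE) and took 99.3% to 99.6% of SERCA counts. ATP2A1, the pump of fast muscle, had 42 and 42 against 25 and 67 counts, and ATP2A3 had 18 and 20 against 15 and 50. For both low-count genes the transgenic libraries lay on either side of the wild-type pair. The Golgi pump ATP2C1 was at 134 and 159 against 169 and 115 CPM, again with transgenic libraries on either side, and ATP2C2 had 36 and 17 against 23 and 20 counts.

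The sodium-calcium exchangers remove calcium at high capacity after activity. SLC8A1 was at 278 and 246 against 238 and 334 CPM, lowest in transgenic library 1 and highest in transgenic library 2. SLC8A2, the form most enriched in brain, was at 61.6 and 99.2 against 96.0 and 101 CPM, and wild-type library 1 was the library that stood apart. The wild-type libraries differed 1.61-fold in this gene, so the log2 fold change of 0.30 ± 0.24 (SE) became -0.013 without wild-type library 1. SLC8A3 was at 30.8 and 38.6 against 38.5 and 28.1 CPM with overlapping groups. Over the 40 genes the median fold between the wild-type libraries was 1.17 and that between the transgenic libraries 1.19, compared with 1.14 and 1.23 over all genes tested.

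Other genes of calcium handling were read from 7 lists of 84 genes by function, of which 79 were tested. None had an adjusted p below 0.05 in edgeR (0% of all genes). At an unadjusted p below 0.05 there were 5 higher and 1 lower (3.23% and 2.39% of all genes), DESeq2 called 1 after adjustment (0.293% of all genes) and limma-voom 0 (0%). The median log2 fold change over the 79 was 0.06, with 51 higher and 28 lower in sign (64.6% higher, compared with 49.6% of all genes). Taken singly, transgenic library 1 lay above both wild-type libraries in 26 of the 79 (32.9%, compared with 34.4% of all genes) and below both in 21. Transgenic library 2 lay above both in 44 (55.7%, compared with 39.9%) and below both in 20.

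The gene that DESeq2 called was CABP1, a calcium-binding relative of calmodulin that acts on voltage-gated channels and inositol trisphosphate receptors. CABP1 was at 197 and 203 against 131 and 109 CPM, with both transgenic libraries well below both wild-type libraries (log2 -0.74 ± 0.14 SE, adjusted p = 0.79 in edgeR, adjusted p = 0.016 in DESeq2). Of the 8 tested channel partners, 5 were higher in sign and 3 lower. Without transgenic library 1, which left transgenic library 2 alone in its group, the edgeR log2 fold change was -0.88 for CABP1. In the same fit it was 1.55 for GEM and 0.59 for CAMK2D. GEM, a small GTPase that restrains calcium channels, was at 1.70 and 1.76 against 1.98 and 5.09 CPM, high in transgenic library 2 alone.

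Among 14 calmodulin, calmodulin kinase and calcineurin genes, 9 were higher in sign and 5 lower, and 2 had an unadjusted p below 0.05. Transgenic library 1 lay above both wild-type libraries in 3 of the 14 and below both in 5, and transgenic library 2 in 11 and 3. CAMK2D was at 144 and 165 against 209 and 233 CPM (log2 0.51 ± 0.14 SE, adjusted p = 0.79 in edgeR), and CAMK4, a nuclear kinase, at 110.1 and 128 against 152 and 169 CPM. Both genes were higher in both transgenic libraries. In the list of 15 genes that lead to inositol trisphosphate, 10 were higher in sign. GRM5, a metabotropic glutamate receptor gene, was at 135 and 159.7 against 182 and 218 CPM, higher in both transgenic libraries (log2 0.44 ± 0.16 SE, adjusted p = 0.79 in edgeR).

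Of 19 tested regulators of pumps and release channels, 12 were higher in sign and 7 lower. The junctophilins JPH1 and JPH4, which hold the endoplasmic reticulum against the plasma membrane, were at 27.2 and 33.2 against 41.1 and 41.6 CPM and at 306 and 331 against 351 and 395 CPM, both without overlap, and JPH1 had an unadjusted p of 0.040. In store-operated entry, 4 of 6 genes were higher in sign, with the channel gene ORAI2 at 63.4 and 67.1 against 77.5 and 85.6 CPM and the store sensor STIM1 at 81.6 and 87.9 against 94.6 and 101 CPM. Of 12 genes of mitochondrial calcium transport 9 were higher in sign. Transgenic library 1 lay above both wild-type libraries in 3 of the 12 and below both in 4, and transgenic library 2 in 9 and 3. MCUB, an inhibitory subunit of the mitochondrial uniporter, was at 6.89 and 5.70 against 9.11 and 8.31 CPM. Potassium-dependent exchangers were higher in 2 of 5 genes, and SLC24A5 was at 4.57 and 3.66 against 4.63 and 7.48 CPM and SLC24A4 at 18.9 and 24.6 against 21.5 and 16.5 CPM. No gene named in this paragraph passed after adjustment in edgeR with all 4 libraries or with any library left out.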

How the data were processed

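For 2 wild-type and 2 APP transgenic libraries the authors deposited raw whole-number counts for each gene symbol, not normalized. Per the labels' protocols, RNeasy Mini was used for total RNA and KAPA Hyper for libraries. STAR 2.5.3a, featureCounts 1.5.2 and kallisto 0.46.2 are listed in the submitters' processing notes, with no role stated. The genome build, the annotation and the strandedness of the counting were not given in the sources used here. Overlapping and antisense genes can therefore share reads.

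The counts were processed in R 4.3.3. After filterByExpr (16385 of 35108 genes kept) and TMM scaling, genotype was tested in edgeR 4.0.16 by its quasi-likelihood F-test (2 residual degrees of freedom). Benjamini-Hochberg adjustment ran over every gene kept, at a threshold of 0.05. Each SE is the size of the fitted log2 fold change divided by the square root of F. DESeq2 1.42.0, limma-voom (limma 3.58.1), other scaling and filters, a replicate block and left-out libraries were alternatives. The main edgeR, DESeq2 and limma-voom fits were tested on simulated data, and the other alternatives were not. With 2 libraries per group no exact permutation test can reach the threshold, so none was run. The members and lists were chosen with earlier results of these data known. Values in each library are given for genes whose groups do not overlap, genes with a library over 2-fold from the median, a fixed set by role, and the 2 genes with the smallest p of each other list. Of these last, 2 genes are not reported here. Remaining members are given by counts or ranges.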

Additional observations from a re-analysis of the deposited data

How the results depend on the processing

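Among the 4 comparisons that left out a library, edgeR called 0 to 1710 of all genes and 0 to 2 of the calcium transport genes, the highest values coming without transgenic library 1. DESeq2 called 48 genes, and edgeR with no low-count filter called 5, but no calcium transport gene. The median log2 fold change of the calcium transport genes was -0.013 without wild-type library 1 and 0.12 without wild-type library 2. With a library left out, which makes separation easier by construction, 12 to 20 of them lay above and 7 to 14 below the wild type without overlap, and 5 lay below with library totals. The shares of all genes without overlap under these settings are not reported here, so these counts cannot be set against them. With the replicate number as a block 0 genes and 0 calcium transport genes were called, and 0 and 0 with the numbers crossed, an alternative added with the data known (correlation of same-numbered deviations -0.14).

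Signs turned for genes whose fitted log2 fold change was smaller than its SE, and for SLC8A2 (0.30 ± 0.24), and the cause was not tested. With library totals CACNA1F was at -0.021 (log2), CACNA2D3 at -0.046, CACNB3 at -0.025 and RYR3 at -0.014. CACNA2D3 was at -0.0057 with a mean count of at least 50, -0.00081 with the replicate block and -0.00064 with the crossed block. CACNA2D4 was at 0.0024 and RYR3 at -0.013 in limma-voom, and CACNA2D4 at 0.00091 with no filter and 0.0061 with the replicate block. With a library left out, the log2 fold change ranged from -0.78 to 0.23 for ATP2A1, from -0.033 to 0.15 for ATP2A2, from -0.37 to 0.95 for ATP2A3, from -0.35 to 0.20 for ATP2C1, from -0.99 to 0.16 for ATP2C2, from -0.13 to 0.16 for CACNA1F, from -0.11 to 0.41 for CACNA1G, from -0.21 to 0.14 for CACNA1I, from -0.12 to 0.12 for CACNA2D3, from -0.23 to 0.24 for CACNA2D4, from -0.26 to 0.062 for CACNB1, from -0.16 to 0.20 for CACNB3, from -0.20 to 0.10 for CACNG2, from -0.049 to 0.46 for CACNG3, from -0.085 to 0.17 for CACNG4, from -0.21 to 0.025 for CACNG8, from -0.24 to 0.052 for ITPR1, from -0.22 to 0.23 for RYR3, from -0.40 to 0.013 for SLC24A4, from -0.14 to 0.35 for SLC8A1, from -0.013 to 0.68 for SLC8A2 and from -0.31 to 0.15 for SLC8A3. At this depth the calcium transport genes with under 100 counts in a library had an SE of up to 0.54.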
